A study of Mus musculus with 4 samples.

Results

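Loss of Cyp27a1 was examined in the liver across 2 genetic backgrounds, one with the Cyp3a genes intact and one in which they were deleted. RNA was sequenced from the livers of 4 male mice, 1 mouse per genotype: wild type (WT, no deletion), Cyp27a1 KO (a global deletion of Cyp27a1), Cyp3a KO (a global Cyp3a deletion) and DKO (both global deletions in 1 animal). The mice ate standard chow and received no treatment, so the genotype was the stated difference between them; strain, age and time of collection are not given in the labels. The series asked how the deletions alter bile acid synthesis. The labels name the second deleted gene Cyp3a4, which is the symbol of a human gene, while mice have several Cyp3a genes. The 2 libraries without Cyp27a1 (Cyp27a1 KO and DKO, the deleted side) were set against the 2 libraries with it (WT and Cyp3a KO, the intact side). Of 33639 genes in the deposited count table, the 11743 whose mean over the 4 libraries reached 1 CPM (a count per 1000000 counts of its library) were compared. The last gene inside that limit was Tgif2 with a mean of 1.001 CPM and the first outside was Tmem119 with 0.999 CPM.

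Cyp27a1 is the mitochondrial sterol 27-hydroxylase. It oxidises the side chain of cholesterol and of bile acid intermediates, and so serves both the alternative route of bile acid synthesis, which it opens, and the classical route, in which Cyp7a1 hydroxylates the sterol ring first. Bile acids normally restrain Cyp7a1 through the nuclear receptor FXR, its target Nr0b2 (SHP) and the intestinal hormone FGF15. Sterol intermediates and bile acids are also known ligands of the xenobiotic receptors PXR and CAR, and Cyp3a enzymes hydroxylate several of these intermediates.

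Each gene was given the difference of the mean log2(CPM + 0.5) of the deleted side minus that of the intact side. A gene counted as called when both libraries of one side lay beyond both of the other and the difference was at least 1 on the log2 scale (2-fold). Separation of any size put 2199 genes (18.7% of 11743) higher and 2430 genes (20.7%) lower on the deleted side. The call needed the 2-fold step as well and held for 204 genes higher (1.74%) and 121 genes lower (1.03%), so 62.8% of the called genes were higher on the deleted side. On the deposited TPM values (transcript abundance on a fixed total, corrected for length), which raise the median difference of all genes from -0.01 to 0.21, the calls were 340 higher and 88 lower, a share of 79.4% higher. With 2 libraries against 2, the smallest exact two-sided permutation p is 0.333, so separation is a description and not a test. An additive model with Cyp3a deletion as the other term (edgeR's quasi-likelihood test, Benjamini-Hochberg adjustment over 11743 genes, 1 residual degree of freedom) found 0 genes (0%) higher and 0 genes (0%) lower at an adjusted p under 0.05. In that fit 1285 genes (10.9%) had an unadjusted p under 0.05, and 279 of the 325 called genes were among them. DESeq2 found 216 genes higher and 116 lower, sharing 206 genes with the 325, and limma voom found 1 higher (Gm3776) and 1 lower (Cyp27a1). No gene therefore passed the main test, and the values below describe these 4 livers.

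The effect of Cyp27a1 loss was read in 2 pairs that share no library: Cyp27a1 KO minus WT with Cyp3a intact, and DKO minus Cyp3a KO without it. Of the 204 genes called higher, 94 were at least 2-fold higher in both pairs, 82 in the DKO pair alone and 28 in the Cyp27a1 KO pair alone. Of the 121 genes called lower, 54 were at least 2-fold lower in both pairs, 50 in the DKO pair alone and 17 in the other pair alone. The median pair differences of the genes called higher were 1.19 with Cyp3a intact and 1.71 without it, and those of the genes called lower were -1.25 and -1.88. The difference between the pairs has no replicate and was not tested. With 1 library left out, here and below, Cyp3a deletion is no longer balanced between the sides, so Cyp3a differences enter those counts. Without the DKO library the calls were 163 higher and 98 lower, of which 102 and 62 were shared with the calls above. Without the Cyp27a1 KO library they were 518 and 343, and without the Cyp3a KO library 410 and 258.

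**Figure D1:**
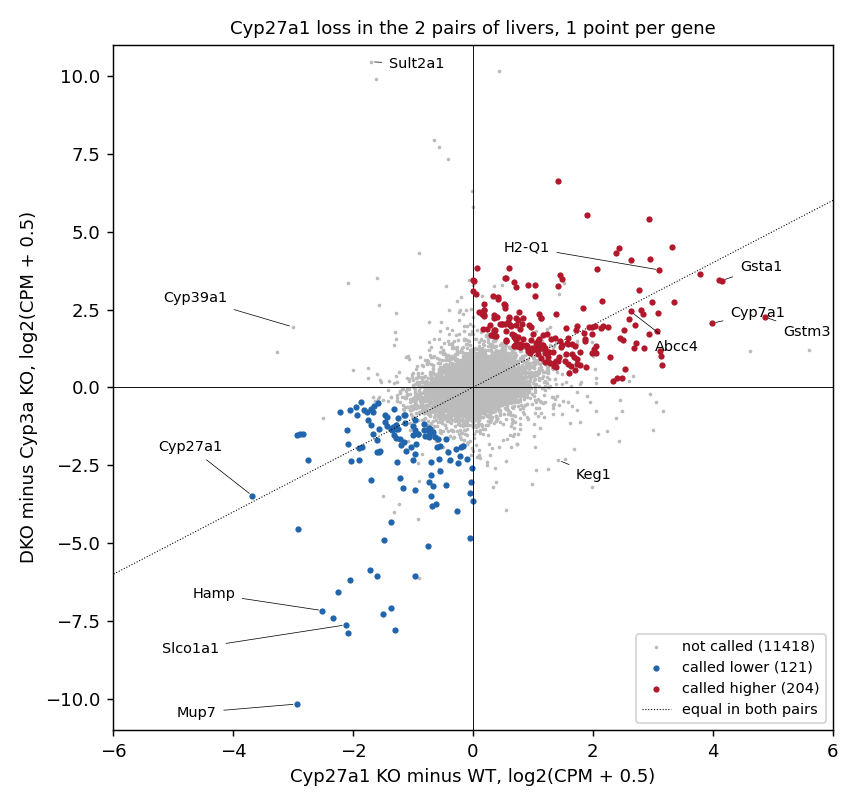
Log2 difference with Cyp27a1 loss for each of 11743 genes, in the pair with Cyp3a intact (x axis) and in the pair without it (y axis); red points are the 204 genes called higher, blue points the 121 called lower and grey points the rest. The axes have different scales, so the dotted line marks equal differences; Cyp27a1 lies close to it at -3.68 and -3.47, while Mup7 lies far below it at -2.94 and -10.16.

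The targeted gene followed the labels. Cyp27a1 (chr1:74713574-74737892, plus strand, GRCm38) had 746 CPM in WT and 727 CPM in Cyp3a KO against 57.6 CPM in Cyp27a1 KO and 65.3 CPM in DKO. The sides were far apart and the 2 libraries within each side lay close together, with counting intervals (exact Poisson, 95%, counting error only) of 738 to 754, 719 to 734, 55.6 to 59.8 and 63.2 to 67.5 CPM. The mean was 12.0-fold lower on the deleted side, the log2 difference was -3.57, and the edgeR adjusted p was 0.0744, the lowest value any gene reached. The deleted libraries kept 2871 and 3538 counts of the gene, and the tables do not resolve which exons these came from. Among the Cyp3a genes, Cyp3a11 had 8742 CPM in WT and 23706 CPM in Cyp27a1 KO against 0.160 CPM in Cyp3a KO and 4.76 CPM in DKO. The labels name Cyp3a and Cyp3a4 but no single mouse Cyp3a gene, so the loss of Cyp3a11 is read from these values. Cyp3a41a was the 1 called gene of the 8 measured Cyp3a genes, with 2.12 CPM in WT and 0.0999 CPM in Cyp3a KO against 4.46 CPM in Cyp27a1 KO and 5.39 CPM in DKO. Without the DKO library 8 of the 8 were called higher, and without WT 6. With either library left out, Cyp3a deletion is no longer balanced between the sides, so those counts do not describe Cyp27a1 loss alone. Cyp3a genes are near-identical in places, and reads of one copy can be assigned to another. Summed over the 9 listed Cyp3a genes, the level was 9605 CPM in WT and 2.70 CPM in Cyp3a KO. It was 25248 CPM in Cyp27a1 KO and 13.2 CPM in DKO. Cyp3a41a thus lay above its WT level in the DKO, although Cyp3a was deleted there, and the source of those reads was not tested.

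Upstream sequence is shown for 3 genes with separated sides and more than 2-fold higher levels in both pairs, chosen after their values were seen. Sequences are from RefSeq on GRCm38.p6, 5′ to 3′, each the 250 bases before the RefSeq start site. Gene positions are from GENCODE M21, whose start sites can differ by some bases. A window can therefore reach into the gene as placed, as that of Cyp26a1 does. Cyp26a1 (gene at chr19:37697798-37701536, plus strand), which clears retinoic acid, is shown because its window holds a repeated nuclear receptor hexamer; capitals mark TGAACT, the reverse complement of AGTTCA, present 2 times with 5 bases between the copies and starting 32 and 21 bases before the start site (chr19:37697558-37697807, plus strand).
Cyp26a1: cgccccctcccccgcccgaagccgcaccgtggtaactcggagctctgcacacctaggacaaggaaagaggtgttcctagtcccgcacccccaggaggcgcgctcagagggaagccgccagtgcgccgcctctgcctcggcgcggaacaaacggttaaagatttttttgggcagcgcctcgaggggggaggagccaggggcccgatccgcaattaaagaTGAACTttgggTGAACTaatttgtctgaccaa
AGTTCA on either strand was present in 11.8% of 32851 such windows, and 2 copies in the same orientation 5 bases apart in 7 of them (0.0213%). The window was picked because it holds this repeat, so the rarity of the repeat is no support for a role in these data. Such a match is a description of the letters and not a measured binding site.

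Gsta1, a glutathione transferase (window chr9:78230419-78230668, plus strand), and its neighbour Gm3776, a predicted gene (window chr9:78256879-78257128, plus strand), are shown because their levels followed the same order over the 4 livers and their windows are nearly the same sequence. Shifted by 13 bases, 236 of 237 aligned bases were identical (99.6%), and the capital letter in each marks the base that differs.
Gsta1: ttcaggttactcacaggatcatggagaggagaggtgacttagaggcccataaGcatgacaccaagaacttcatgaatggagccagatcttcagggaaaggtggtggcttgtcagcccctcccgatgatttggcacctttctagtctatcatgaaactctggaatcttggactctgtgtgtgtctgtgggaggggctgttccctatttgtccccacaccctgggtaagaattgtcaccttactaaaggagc
Gm3776: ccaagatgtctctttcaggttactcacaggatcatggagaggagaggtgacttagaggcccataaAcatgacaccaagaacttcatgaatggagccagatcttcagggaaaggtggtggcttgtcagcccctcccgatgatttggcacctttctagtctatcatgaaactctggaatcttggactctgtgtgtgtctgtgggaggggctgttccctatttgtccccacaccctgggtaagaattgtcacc
The motifs CACCCCAC (2.58% of windows), TGACNNNGC (10.2%), CAAGGNCA (5.53%) and AGTTCA, searched on both strands, had no match in the windows of Gsta1, Gm3776 or Gstm3. Of the 7 genes picked for this, 4 had a window in the table; Cyp7a1 and Fdps were among those not shown.

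Cyp26a1 had 6.05 CPM in WT and 9.77 CPM in Cyp3a KO against 30.8 CPM in Cyp27a1 KO and 38.6 CPM in DKO, a log2 difference of 2.09 with pair differences of 2.26 and 1.93. Its sides did not overlap, and the nearest libraries were 1.61 apart on the log2 scale. Gsta1 had 4.61 CPM in WT and 35.2 CPM in Cyp3a KO against 90.0 CPM in Cyp27a1 KO and 384 CPM in DKO, a log2 difference of 3.79. Gm3776 had 3.24 CPM in WT and 16.5 CPM in Cyp3a KO against 51.0 CPM in Cyp27a1 KO and 209 CPM in DKO, a log2 difference of 3.70. In both genes the Cyp3a KO lay above WT and the DKO above the Cyp27a1 KO, with the sides apart; the pair differences were 4.15 and 3.43 for Gsta1 and 3.78 and 3.63 for Gm3776. How the deposited counts divided reads between these similar genes is not given, so their values are not independent of each other.

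Genes of bile acid synthesis did not move in one direction. Of 21 measured members, 2 were called higher (Cyp7a1 and Akr1d1), against 1.74% of all genes, and 2 lower (Cyp27a1 itself and Cyp7b1), against 1.03%. The sides of 12 overlapped, a share near that of all genes (7114 of 11743). The median log2 difference of the list was -0.17 against -0.01 over all genes, and it was 0.04 on TPM, so its sign depended on the scaling. Cyp7a1 (chr4:6265612-6275633, minus strand), the rate-limiting enzyme of the classical route, had 22.4 CPM in WT and 41.3 CPM in Cyp3a KO against 362 CPM in Cyp27a1 KO and 173 CPM in DKO. Both deleted libraries lay above both intact ones, at least 2.06 apart on the log2 scale, and the mean level was 8.40-fold higher. The log2 difference was 3.02, with pair differences of 3.99 and 2.06 and an edgeR adjusted p of 0.217. Akr1d1, which reduces the sterol ring downstream of Cyp7a1, had 130.3 CPM in WT and 283 CPM in Cyp3a KO against 309.9 CPM in Cyp27a1 KO and 619 CPM in DKO, a log2 difference of 1.19. Its Cyp27a1 KO value lay only 0.13 above its Cyp3a KO value on the log2 scale, and the call was lost without either the WT or the DKO library.

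Cyp7b1, the oxysterol hydroxylase that follows Cyp27a1 in the alternative route, had 231 CPM in WT and 209 CPM in Cyp3a KO against 150.2 CPM in Cyp27a1 KO and 15.4 CPM in DKO. The sides were apart, but the DKO was far below the other 3 livers; the pair differences were -0.62 and -3.73, and without the DKO the gene was not called. Cyp7b1 is also known to be expressed more in male than in female mouse liver. Cyp8b1, the 12-alpha-hydroxylase that directs synthesis toward cholic acid, had 467 CPM in WT and 663 CPM in Cyp3a KO against 742 CPM in Cyp27a1 KO and 421 CPM in DKO. Its sides overlapped and its log2 difference was 0.01. Cyp39a1, the 24-hydroxycholesterol 7-alpha-hydroxylase, had 99.7 CPM in WT and 13.4 CPM in Cyp3a KO against 12.0 CPM in Cyp27a1 KO and 52.7 CPM in DKO, so the highest and the lowest value were WT and Cyp27a1 KO and the pair differences pointed in opposite directions (-3.00 and 1.94). Of the other enzymes, Hsd3b7, which oxidises the ring after Cyp7a1, had a difference of -0.34 with overlapping sides. Acox2, the peroxisomal oxidase that shortens the side chain after Cyp27a1, was separated but below 2-fold at 0.28, and Slc27a5 and Baat, which activate and conjugate bile acids, had differences of 0.20 and 0.00.

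**Figure D2:**
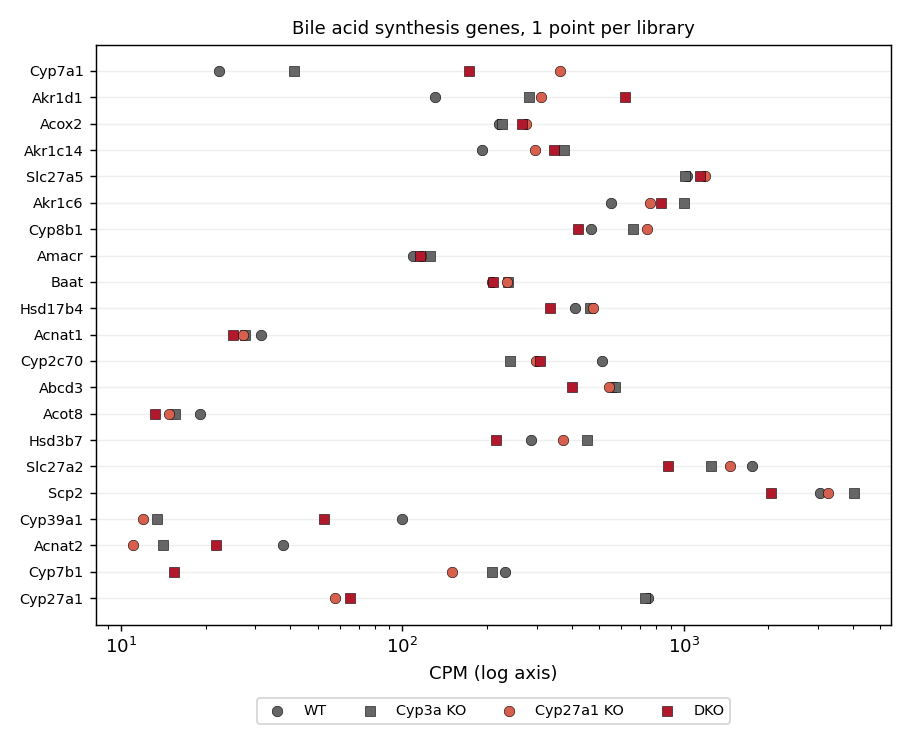
Level in CPM (log axis) of the 21 measured bile acid synthesis genes, 1 point per library; grey points are the intact side and red points the deleted side, circles the libraries with Cyp3a and squares those without. Cyp7a1 shows both red points to the right of both grey points (362 and 173 CPM against 22.4 and 41.3 CPM), Cyp27a1 shows the reverse, and in Cyp8b1 and Cyp39a1 the colours are mixed.

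Of 9 measured electron and sterol partners of Cyp27a1, 0 were called in either direction (edgeR's test: 0 of 9 at an unadjusted p under 0.05; DESeq2: 0 of 9; 1 was called higher without the Cyp27a1 KO library), and their differences ran from -0.35 for Star, a mitochondrial cholesterol carrier, to 0.38 for Fdxr, the reductase that feeds electrons to mitochondrial P450 enzymes. Fdx1, the ferredoxin of that chain, had 46.9 CPM in WT and 73.0 CPM in Cyp3a KO against 60.0 CPM in Cyp27a1 KO and 72.2 CPM in DKO, with overlapping sides. Over all genes 2.77% were called, so 0 of 9 lies near that share.

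Of 11 feedback genes, 0 were called in either direction (edgeR's test: 1 of 11 at an unadjusted p under 0.05; DESeq2: 1 of 11), and 1 was called lower without the WT or the DKO library. Over all genes 2.77% were called, so 0 of 11 lies near that share. Nr0b2, the repressor of Cyp7a1, had the lowest difference of the 11 at -0.96. It had 16.3 CPM in WT and 46.3 CPM in Cyp3a KO against 7.87 CPM in Cyp27a1 KO and 24.3 CPM in DKO. Within each pair the liver without Cyp27a1 was the lower one (-1.01 and -0.92), but the sides overlapped because the DKO lay above WT. The receptor Nr1h4 (FXR) and the FGF15 receptor subunits Fgfr4 and Klb had differences of -0.11, 0.08 and -0.14.

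Of 15 bile acid transporters, 1 was called higher and 1 lower, against 1.74% and 1.03% of all genes. Without the Cyp27a1 KO library 6 were called higher, and without the Cyp3a KO 4. Abcc4, a sinusoidal exporter of bile acids and conjugates, had 3.24 CPM in WT and 3.40 CPM in Cyp3a KO against 22.7 CPM in Cyp27a1 KO and 20.7 CPM in DKO. The 2 libraries within each side nearly coincided, the log2 difference was 2.54 with pair differences of 2.63 and 2.44, and the edgeR adjusted p was 0.0744. Slco1a1, a sinusoidal uptake carrier more abundant in male than in female mice, had 341 CPM in WT and 478 CPM in Cyp3a KO against 78.2 CPM in Cyp27a1 KO and 1.94 CPM in DKO, a log2 difference of -4.87 with pair differences of -2.12 and -7.62. The canalicular bile salt pump Abcb11 (0.09) and the uptake carrier Slc10a1 (0.16) had small differences with overlapping sides.

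Of the 25 measured genes of cholesterol synthesis, 22 were higher within both pairs (not Hsd17b7, Insig1 and Srebf2), while most had overlapping sides. By the separation rule 2 were called higher (among them Fdps, which makes farnesyl diphosphate) and 0 lower, against 1.74% and 1.03% of all genes. The sides of 22 overlapped, as did those of 7114 of all 11743 genes. The median difference was 1.11 against -0.01 over all genes, with pair medians of 0.91 and 1.14, and 17 of 25 had an unadjusted edgeR p under 0.05 against 10.9% of all genes, the lowest adjusted p of the list being 0.142. Idi1, the isopentenyl diphosphate isomerase, shows the arrangement: it had 68.8 CPM in WT and 433 CPM in Cyp3a KO against 229.6 CPM in Cyp27a1 KO and 1139.7 CPM in DKO. The Cyp3a KO lay above the Cyp27a1 KO, so the sides overlapped, while both pair differences were positive (1.73 and 1.39). Leaving out 1 library unbalances the sides for Cyp3a, so the counts that follow mix both deletions. Calls of this list turned on single libraries: without the WT or the DKO library 0 of 25 were called, whereas without the Cyp27a1 KO library 21 were called higher and without the Cyp3a KO library 19.

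Liver X receptor (LXR) targets and fatty acid synthesis genes held calls higher and none lower over the 4 libraries (1 lower in each list without the WT library). Of 10 LXR targets 2 were called higher, and of 17 lipogenic genes 3 were, against 1.74% of all genes. The medians of the lists were 0.32 and 0.45. The LXR pair medians were -0.13 with Cyp3a intact and 0.82 without it, and those of the lipogenic genes 0.56 and 0.61. Without the Cyp27a1 KO library 5 and 7 were called higher, and without the Cyp3a KO library 2 and 7. Scd1, the stearoyl-CoA desaturase and a member of both lists, had 3755 CPM in WT and 3525 CPM in Cyp3a KO against 9689.8 CPM in Cyp27a1 KO and 10640 CPM in DKO. Thrsp, a promoter of lipogenesis, had 159 CPM in WT and 225 CPM in Cyp3a KO against 503 CPM in Cyp27a1 KO and 592 CPM in DKO. In both genes the sides were at least 1.16 apart on the log2 scale, with differences of 1.48 for Scd1 and 1.53 for Thrsp. Pltp, which transfers phospholipids between lipoproteins, had 19.5 CPM in WT and 47.0 CPM in Cyp3a KO against 128 CPM in Cyp27a1 KO and 113 CPM in DKO, a difference of 1.97. Acly, which supplies cytosolic acetyl-CoA, had a difference of 1.26. The cholesterol exporters Abcg5 and Abcg8 and the LXR gene Nr1h3 had overlapping sides and differences of 0.47, 0.50 and -0.12, and Srebf1, the lipogenic transcription factor, had one of -0.43.

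Targets of PPARalpha, the receptor that drives fatty acid oxidation, showed the opposite balance. Of 29 measured, 5 were called lower and 1 higher, against 1.03% and 1.74% of all genes. At any size 13 were below on the deleted side against a background of 20.7%, and the median was -0.33. Without the DKO library 3 were called lower, without the Cyp27a1 KO library 11 and without the Cyp3a KO library 8. The 5 were the fatty acid hydroxylases Cyp4a10, Cyp4a14, Cyp4a31 and Cyp4a32 and the hormone gene Fgf21. Cyp4a14 had 2185 CPM in WT and 582 CPM in Cyp3a KO against 325 CPM in Cyp27a1 KO and 116 CPM in DKO, a log2 difference of -2.53 with pair differences of -2.75 and -2.32. WT was highest and DKO lowest, and the sides did not overlap. The Cyp4a genes are close copies, and how reads shared between them were assigned is not given. The 1 called higher was Cd36, the fatty acid translocase, at 21.9 CPM in WT and 37.8 CPM in Cyp3a KO against 136 CPM in Cyp27a1 KO and 174 CPM in DKO, a difference of 2.40 with pair differences of 2.61 and 2.19. Cpt1a and Hadha, enzymes of fatty acid oxidation, had differences of -0.12 and -0.24.

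Genes known to respond to PXR and CAR held the most calls higher of the 37 lists. Of 32 measured, 12 were called higher and 0 lower, against 1.74% and 1.03% of all genes. The median difference was 1.24 with pair medians of 1.41 and 0.92. The calls were 10 without the WT library and 11 without the DKO, but 23 without the Cyp27a1 KO and 22 without the Cyp3a KO. Summed over the list, the level was 8714 CPM in WT and 23614 CPM in Cyp3a KO against 23626 CPM in Cyp27a1 KO and 52507 CPM in DKO. The Cyp27a1 KO and the Cyp3a KO were nearly level, so the sum separated the sides by a hair while each pair differed more than 2-fold. Cyp2a5, a coumarin hydroxylase, had 427 CPM in WT and 1309.7 CPM in Cyp3a KO against 3004 CPM in Cyp27a1 KO and 7399.9 CPM in DKO, a difference of 2.66. Gsta2, a glutathione transferase, had 34.5 CPM in WT and 43.0 CPM in Cyp3a KO against 105 CPM in Cyp27a1 KO and 131 CPM in DKO, with pair differences of 1.59 and 1.60. Gstm3, of the same enzyme class, had 51.3 CPM in WT and 1504 CPM in Cyp3a KO against 1512 CPM in Cyp27a1 KO and 7182 CPM in DKO, so its difference of 3.56 rested on a gap of 0.01 between the nearest libraries. Cyp2b10, a standard CAR target, had 99.3 CPM in WT and 353 CPM in Cyp3a KO against 223 CPM in Cyp27a1 KO and 995 CPM in DKO, with overlapping sides and a difference of 1.33. The receptor genes Nr1i2 (PXR) and Nr1i3 (CAR) had differences of 0.01 and -0.13.

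Of 41 conjugation enzymes, 10 were called higher and 2 lower (Sult2a8, a sulfotransferase, and Gstp1, a glutathione transferase). Over all genes these shares were 1.74% and 1.03%. The median of the list was 0.44, and 7 of the 10 are glutathione transferases. Gsta1, Gsta2, Gstm1, Gstm2, Gstm3, Gstm4 and Ugt1a9 were also among the calls of the PXR and CAR list. The calls of these lists are therefore largely the same genes and not separate results. Without the Cyp27a1 KO library 16 were called higher and 8 lower. Gstp1, which is more abundant in male mouse liver, had 2374 CPM in WT and 1685 CPM in Cyp3a KO against 982 CPM in Cyp27a1 KO and 320.4 CPM in DKO, a difference of -1.83. Sult1e1, the oestrogen sulfotransferase, had 0.450 CPM in WT and 0.0999 CPM in Cyp3a KO against 3.07 CPM in Cyp27a1 KO and 27.1 CPM in DKO. Its intact values rested on 21 and 5 counts, and its difference was 3.72 with pair differences of 1.91 and 5.52. Of 17 targets of NRF2, the oxidant-sensing transcription factor, 5 were called higher, against 1.74% of all genes. Of the 5, Gsta1, Gstm1 and Gstm3 were also in the PXR and CAR list. Nqo1, a quinone reductase, had 2.32 CPM in WT and 3.34 CPM in Cyp3a KO against 9.78 CPM in Cyp27a1 KO and 10.3 CPM in DKO, a difference of 1.68, whereas Gclc, Txnrd1 and Hmox1 of the same list had differences of -0.45, -0.02 and 0.31.

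**Figure D3:**
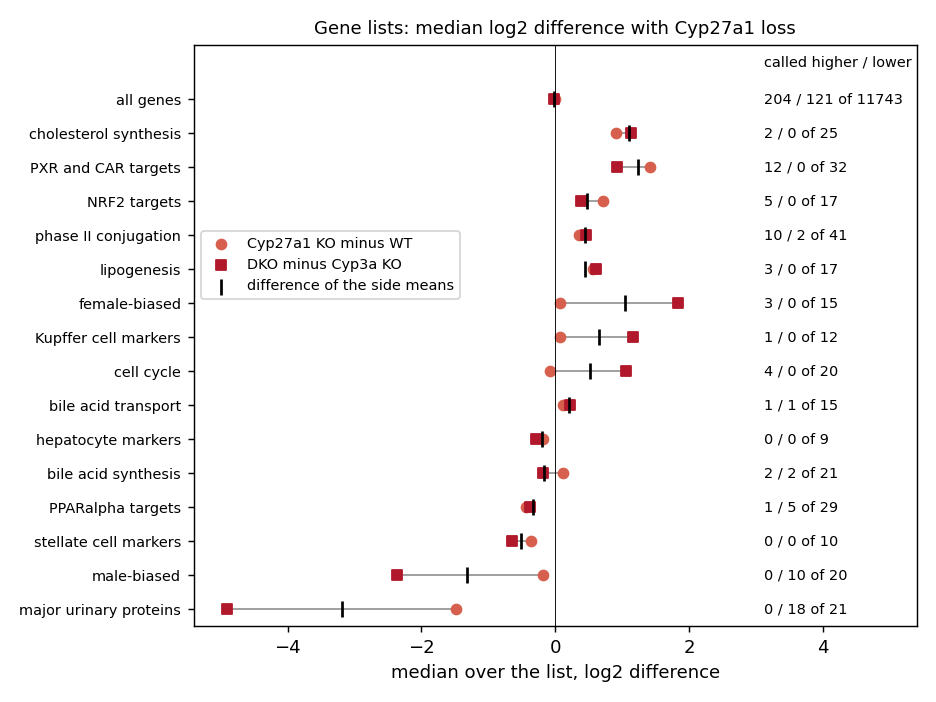
Median log2 difference with Cyp27a1 loss over the measured genes of 15 lists and over all genes; circles are Cyp27a1 KO minus WT, squares DKO minus Cyp3a KO, and the vertical bar the difference of the side means. The numbers at the right are genes called higher and lower; cholesterol synthesis and the PXR and CAR targets have both pair medians well above 0, while the male-biased genes and major urinary proteins have their lower median in the DKO pair (-2.36 and -4.90).

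Genes whose level differs between the sexes in mouse liver, a pattern set by growth hormone, had larger median differences in the pair without Cyp3a, a contrast that was not tested. Of 20 genes known as male-biased, 10 were called lower and 0 higher, against 1.03% and 1.74% of all genes. Their median was -1.32, with pair medians of -0.18 and -2.36. On TPM and with library totals as the scale, 6 of them were called lower, and without the DKO library 4 were called lower and 1 higher; without the Cyp27a1 KO library 17 were called lower. Hsd3b5, a steroid dehydrogenase of male liver, had 27.6 CPM in WT and 139 CPM in Cyp3a KO against 10.9 CPM in Cyp27a1 KO and 0.129 CPM in DKO, the last resting on 7 counts. Its difference was -4.55 with pair differences of -1.30 and -7.79. Of 15 female-biased genes, 3 were called higher (among them Cyp2a4 and Atp6v0d2) and 0 lower; 3 were called higher without the DKO library too, but 9 higher and 1 lower without the Cyp27a1 KO, 8 and 2 without WT and 6 and 1 without the Cyp3a KO. Atp6v0d2, a proton pump subunit, had 0.944 CPM in WT and 4.31 CPM in Cyp3a KO against 10.7 CPM in Cyp27a1 KO and 83.5 CPM in DKO, with pair differences of 2.96 and 4.13 and an edgeR adjusted p of 0.0744. Among regulators of this axis, Bcl6, a repressor more abundant in male liver, was the 1 called lower of 11; it had 10.1 CPM in WT and 90.1 CPM in Cyp3a KO against 8.27 CPM in Cyp27a1 KO and 5.32 CPM in DKO, and was not called without the Cyp3a KO library.

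The major urinary proteins (Mup genes, secreted pheromone carriers of male liver) held the lowest differences in the table. Of 21 measured, 18 were called lower and 0 higher, against 1.03% and 1.74% of all genes. Mup7, Mup20 and Mup21 were also counted among the male-biased genes called lower, so these counts overlap. On TPM 15 were called lower, with library totals 16, and without the DKO library 11. Summed, they had 91477 CPM in WT and 79920.1 CPM in Cyp3a KO against 38392 CPM in Cyp27a1 KO and 2440.1 CPM in DKO. Mup7, the most abundant of them in WT, had 28047 CPM in WT and 20285 CPM in Cyp3a KO against 3649.6 CPM in Cyp27a1 KO and 17.2 CPM in DKO. Its sides were 2.47 apart, and its pair differences were -2.94 and -10.16. Mup19 was an exception, at 13599 CPM in WT, 19942 CPM in Cyp3a KO and 19855 CPM in Cyp27a1 KO against 1306 CPM in DKO, so only the DKO stood apart. Mup genes are near-identical copies, and the split of reads between them is uncertain, while the sum is less exposed to that split. The Mup genes took 8.57% of all counts in WT, 7.94% in Cyp3a KO, 3.83% in Cyp27a1 KO and 0.263% in DKO, which moves the CPM of every other gene; the TMM factors used here ran from 0.937 to 1.08.

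Several genes of other pathways had both deleted libraries well beyond both intact ones. The gap between the nearest libraries of the sides was at least 2-fold for 52 of the 204 genes called higher and 24 of the 121 called lower. Fam19a2, which encodes a secreted chemokine-like protein, had 0.0858 CPM in WT and 0.479 CPM in Cyp3a KO against 9.56 CPM in Cyp27a1 KO and 10.2 CPM in DKO. It had the widest gap among genes called higher with a mean of at least 5 CPM, 3.36 on the log2 scale, although its intact values rested on 4 and 24 counts. H2-Q1, a nonclassical class I histocompatibility gene, had 4.16 CPM in WT and 4.19 CPM in Cyp3a KO against 39.6 CPM in Cyp27a1 KO and 63.4 CPM in DKO. Its gap was 3.10 and its pair differences were 3.11 and 3.77; class I genes resemble one another in sequence. Ly6d, a membrane antigen of the Ly6 family, had 0.429 CPM in WT and 0.439 CPM in Cyp3a KO against 5.30 CPM in Cyp27a1 KO and 15.4 CPM in DKO, a gap of 2.63.

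Lrtm2, a leucine-rich repeat membrane protein, had the largest difference of any gene named by the rule among those called, 4.16. It had 0.107 CPM in WT and 0.260 CPM in Cyp3a KO against 4.14 CPM in Cyp27a1 KO and 31.4 CPM in DKO, so both deleted libraries were higher, the DKO by far the most. Cyp2a22, a P450 of the Cyp2a family, had 0.493 CPM in WT and 0.559 CPM in Cyp3a KO against 4.66 CPM in Cyp27a1 KO and 20.7 CPM in DKO, a gap of 2.28. Themis, a gene known from developing T cells, had 0.172 CPM in WT and 0.280 CPM in Cyp3a KO against 3.13 CPM in Cyp27a1 KO and 17.0 CPM in DKO, a difference of 3.46. All 6 lymphocyte markers were under 1 CPM on average, and their sum ran from 1.24 CPM in WT and 1.50 CPM in Cyp3a KO to 1.65 CPM in Cyp27a1 KO and 1.86 CPM in DKO. Pls1, an actin bundling protein, had 0.558 CPM in WT and 2.66 CPM in Cyp3a KO against 10.3 CPM in Cyp27a1 KO and 20.5 CPM in DKO.

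**Figure D4:**
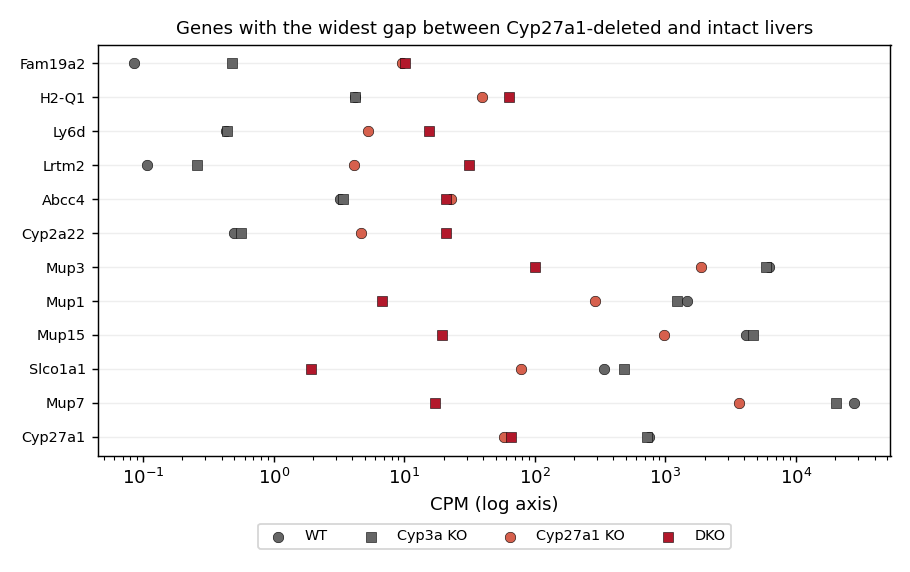
Level in CPM (log axis) of the 6 genes in each direction with the widest gap between the nearest libraries of the sides, 1 point per library; grey is the intact side, red the deleted side, circles with Cyp3a and squares without. In Cyp27a1 and Abcc4 the 2 red points nearly coincide, while in Mup7 and Slco1a1 they lie far apart (3649.6 and 17.2 CPM for Mup7).

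The edgeR fit placed a few further genes near the front, named here after their values were seen. Prss8, a membrane serine protease, had 2.40 CPM in WT and 7.27 CPM in Cyp3a KO against 22.3 CPM in Cyp27a1 KO and 51.8 CPM in DKO, with an adjusted p of 0.0744. Aqp8, a canalicular water channel, had 23.4 CPM in WT and 40.6 CPM in Cyp3a KO against 97.0 CPM in Cyp27a1 KO and 159.6 CPM in DKO, with pair differences of 2.03 and 1.96. Both had the same order of livers as Gsta1, with WT lowest and DKO highest. Avpr1a, the vasopressin receptor, had 36.8 CPM in WT and 18.2 CPM in Cyp3a KO against 8.63 CPM in Cyp27a1 KO and 3.14 CPM in DKO, the reverse order, with a difference of -2.20. Enho, which encodes the peptide adropin, had a difference of -1.64 with pair differences of -1.59 and -1.68.

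Hamp, which encodes the iron hormone hepcidin, was among the lowest. It had 642 CPM in WT and 272 CPM in Cyp3a KO against 112 CPM in Cyp27a1 KO and 1.40 CPM in DKO, a difference of -4.84 with pair differences of -2.51 and -7.16. Id1 and Smad7, which like Hamp respond to BMP signals in liver, were the other 2 called lower of 14 iron genes, with differences of -1.45 and -1.13; without the DKO library Hamp alone of the 14 was called. Over all genes 1.03% were called lower. Tfrc, the transferrin receptor, and Fth1, the ferritin heavy chain, were separated but below 2-fold, with differences of 0.79 and 0.68. Bmp6, the signal that acts on Hamp, had a difference of 0.47 with overlapping sides.

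Other lists held few calls, to be read beside 1.74% of all genes called higher and 1.03% lower. Myc, of 18 immediate early and heat shock genes, was the 1 called higher, at 9.74 CPM in WT and 13.0 CPM in Cyp3a KO against 30.4 CPM in Cyp27a1 KO and 35.0 CPM in DKO. Its sides were apart by 1.20 and its pair differences were 1.59 and 1.40. Of 20 cell cycle genes, 4 were called higher (Mki67, Top2a, Ccnb1 and Ccna2), with pair medians of -0.07 and 1.06; Top2a had 0.922, 1.10 and 1.12 CPM in WT, Cyp3a KO and Cyp27a1 KO against 7.44 CPM in DKO, and 0 of the 14 measured on TPM and 0 of the 20 without the DKO library were called, against 11 without the Cyp27a1 KO and 7 without WT. Ccnb1 had 11 counts in both Cyp27a1 KO and Cyp3a KO. Only the scaling of the libraries set its sides apart (0.221 against 0.220 CPM), and they overlapped on TPM. Of 20 interferon genes 1 was called higher (Oasl1), of 15 acute phase genes 2 higher (Orm3 and Lcn2) and 1 lower (Saa4), and of 11 pericentral genes 1 higher (Rhbg). Without the Cyp27a1 KO library 5 interferon genes were called higher and 3 acute phase genes lower, and the counts were the same without the Cyp3a KO; 5 immediate early and heat shock genes were called higher without the Cyp3a KO. Oasl1 and Saa4 were not called without the WT or the DKO library, nor Lcn2 without the Cyp27a1 KO or the Cyp3a KO. Sox9, a bile duct and periportal transcription factor, was the 1 called lower of both the 11 periportal and the 5 cholangiocyte genes.

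No gene was called in either direction among 18 clock genes, 14 genes of the ATF4 and endoplasmic reticulum stress responses, 12 of glucose handling and 6 of p53. Over all genes 2.77% were called, so 0 in lists this short lies near that share. In edgeR's test 2, 2, 2 and 1 of them had an unadjusted p under 0.05, and DESeq2 called 1 in each. With 1 library left out, up to 3 clock genes were called higher and 3 lower (both without the Cyp27a1 KO), up to 2 ATF4 genes lower (without WT), and at most 1 in either direction in the other 2 lists. The clock output gene Dbp had 2.06 CPM in WT and 1.22 CPM in Cyp27a1 KO against 28.9 CPM in Cyp3a KO and 50.0 CPM in DKO, so it divided the livers by Cyp3a and not by Cyp27a1. Arntl, the core clock activator, had 29.6 CPM in WT and 28.9 CPM in Cyp27a1 KO against 10.6 CPM in Cyp3a KO and 1.98 CPM in DKO. It was lower in the livers without Cyp3a, where Dbp was higher.

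Markers of liver cell types were counted beside these results. Over all genes 2.77% were called, so a count of 0 in lists this short lies near that share. In bulk liver RNA, fewer cells of a type and less RNA per cell cannot be told apart. Of 9 hepatocyte markers 0 were called (edgeR's test: 0 of 9 at an unadjusted p under 0.05; DESeq2: 1, Ttr, a thyroid hormone carrier), and their sum ran from 76161 CPM in Cyp27a1 KO to 116092 CPM in WT, so the tissue label holds. Of 12 Kupffer cell markers 1 was called higher (Adgre1, at 12.6, 9.29, 16.4 and 33.3 CPM in WT, Cyp3a KO, Cyp27a1 KO and DKO), and 8 were above at any size against a background of 18.7%. Their sum was 353 CPM in WT and 238 CPM in Cyp3a KO against 376 CPM in Cyp27a1 KO and 543 CPM in DKO, with pair medians of 0.07 and 1.16, and 0 of the 12 were called without the DKO or the Cyp3a KO library, against 5 without WT, 5 without the Cyp27a1 KO and 3 on TPM. Of 10 stellate cell and matrix genes 0 were called by separation, and 1 was called lower without the WT or the DKO library. In edgeR's test 5 of the 10 had an unadjusted p under 0.05, and DESeq2 called 1. At any size 8 were below, against a background of 20.7%; on TPM 5 were. Col1a2, a fibrillar collagen chain, had 16.8 CPM in WT and 16.6 CPM in Cyp3a KO against 10.2 CPM in Cyp27a1 KO and 9.97 CPM in DKO, with separated sides and a difference of -0.70, short of the 2-fold step. Of 9 endothelial, 5 erythroid, 14 ribosomal protein and 9 mitochondrial genes 0 were called (edgeR's test: 0 at an unadjusted p under 0.05; DESeq2: 0), with 1 endothelial gene called higher without WT and 1 erythroid gene lower without the Cyp27a1 KO or the Cyp3a KO. The part of these markers in the other results was not tested.

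Some large differences did not separate the sides. Of 270 genes with a difference of at least 1, the sides of 66 overlapped, and in 54 of these the DKO alone lay above both intact livers. Of 156 genes at -1 or below, the sides of 35 overlapped, and in 32 the DKO alone lay below. Sult2a1, a bile acid sulfotransferase of female liver, had 2.55 CPM in WT and 0.0200 CPM in Cyp3a KO (1 count) against 0.442 CPM in Cyp27a1 KO and 728 CPM in DKO. The DKO was far above the other 3, while the Cyp27a1 KO lay below WT; Sult2a2 and Sult2a5 had the same arrangement, and these copies share sequence. Cyp2b9, a P450 of female liver, had at most 0.300 CPM in the other 3 livers against 93.2 CPM in DKO. Elovl3, a fatty acid elongase of male liver, had 802 CPM in WT and 361 CPM in Cyp3a KO against 428 CPM in Cyp27a1 KO and 4.78 CPM in DKO, a difference of -3.50. For these genes a mean over the 2 deleted livers describes neither of them.

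**Figure D5:**
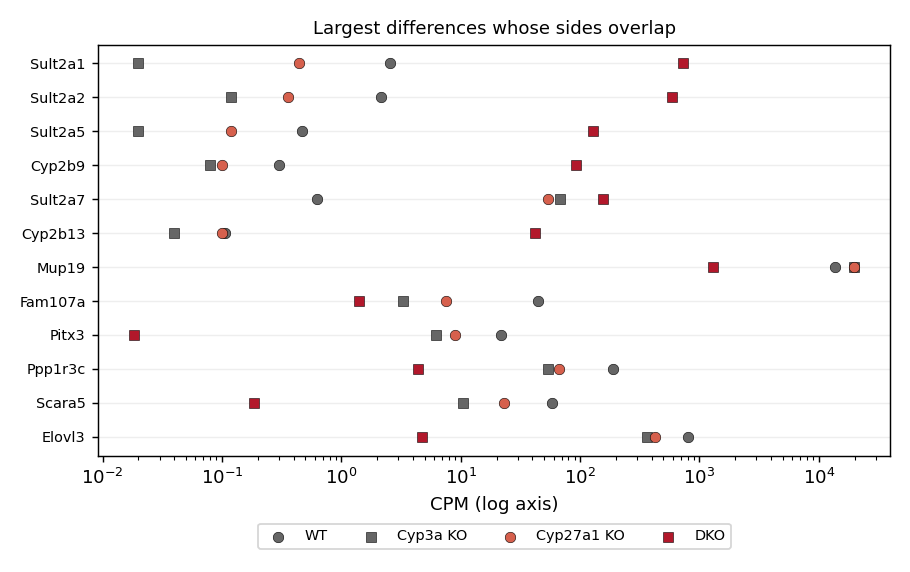
Level in CPM (log axis) of the 6 genes in each direction with the largest difference among those whose sides overlap and whose mean is at least 5 CPM; grey is the intact side, red the deleted side, circles with Cyp3a and squares without. In each of the 12 genes the DKO square is the highest or the lowest point, as for Sult2a1 at 728 CPM, but in Sult2a7 and Fam107a WT at the other end lies farther from the rest; the DKO point of Pitx3, a count of 0, is drawn at 0.0185 CPM, the worth of 1 count.

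Genes beside Cyp27a1 were looked at because alleles near a targeted locus can travel with it from the line in which it was made. Within 10 Mb of Cyp27a1 on chromosome 1, 64 other genes were measured, of which 1 was called higher and 2 lower (4.69%), against 2.77% of all genes. Within 20 Mb, 184 were measured, with 3 called higher and 3 lower (3.26%). Ugt1a9 and Ugt1a5, among those called higher, overlap and end at the same base (chr1:88218997), so they are not independent. Both were also counted among the conjugation enzymes called higher. Wdfy1, an endosomal adaptor (chr1:79702262-79776143, minus strand, 4.99 Mb away), had 8.26 CPM in WT and 8.55 CPM in Cyp3a KO against 33.2 CPM in Cyp27a1 KO and 34.5 CPM in DKO. Its 2 values on each side nearly coincided, and its pair differences were 1.94 and 1.95. Serpine2, a protease inhibitor 5.08 Mb away, had 19.1 CPM in WT and 4.39 CPM in Cyp3a KO against 2.27 CPM in Cyp27a1 KO and 1.26 CPM in DKO. Erbb4, a growth factor receptor, had 1.50 CPM in WT and 3.81 CPM in Cyp3a KO against 0.120 CPM in Cyp27a1 KO and 0.0554 CPM in DKO, the last 2 resting on 6 and 3 counts. Whether strain alleles around the locus bear on these genes was not tested.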

How the data were processed

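RNA from the livers of 4 male mice, 1 per genotype, was sequenced from TruSeq libraries, per the labels' protocols. kallisto 0.43.1, HISAT2 2.0.5 and Trimmomatic 0.33 appear in the submitters' processing notes, as does mm10, with no role stated for any of them; an annotation release is not given in the sources used here. One deposited table holds estimated counts for each symbol with no scaling by the authors (57.7% of values were whole), and these were rounded here. The authors also deposited TPM values, used as an alternative. A nameless row (1, with 0 counts) was dropped. Totals were 49745860 (WT), 49980012 (Cyp27a1 KO), 50378101 (Cyp3a KO) and 50280651 (DKO) counts, so 1 count was worth 0.0185 to 0.0214 CPM. Intervals are exact Poisson at 95% and cover counting error only, since these reads carry no molecular identifiers and are not independent molecules.

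Libraries were scaled by edgeR's TMM method (edgeR 4.0.16, R 4.3.3), and differences were taken on log2(CPM + 0.5), which understates the change of low genes. The additive model was fitted with edgeR's quasi-likelihood test; its 1 residual degree of freedom holds both the departure from additivity and the differences between mice. Its common dispersion was 0.0516. DESeq2 1.42.0 and limma voom 3.58.1 were alternatives, with other scalings, filters, pseudocounts and fold steps and with each library left out. The scripts were tested on simulated data. Gene coordinates are from GENCODE M21 (GRCm38), which matched 11503 of the 11743 symbols.

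The comparison, the 37 gene lists and the tests were chosen with earlier results of these data known, so no list is independent evidence. The genes named are the bile acid synthesis and partner lists; among called genes with a mean of at least 5 CPM, the 12 with the largest and the 12 with the smallest difference and the 6 in each direction with the widest gap; the 6 in each direction with the largest difference and overlapping sides; up to 4 members of each other list by size of difference; and the 5 in each arrangement whose pairs point opposite ways. Symbols of predicted genes were passed over (2 among the 12 named higher, 0 among the 12 named lower). Some were left out for length. List members named beyond this rule show a list's range or its best known genes and, like the genes near Cyp27a1, were chosen after their values were seen. Values of some single genes are not reported here.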

Additional observations from a re-analysis of the deposited data

Results flagged for a closer look

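In 14 genes with a mean of at least 5 CPM, Cyp27a1 loss went at least 2-fold one way with Cyp3a intact and at least 2-fold the other way without it: 9 were higher in Cyp27a1 KO than in WT and lower in DKO than in Cyp3a KO, and 5 were the reverse. Each pair is 1 library against 1, so the difference between the pairs was not tested. The 5 most opposed genes of each arrangement are given here.

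Keg1, a glycine acyltransferase-like gene of male liver, was 1.42 higher on the log2 scale in Cyp27a1 KO than in WT, and its difference of DKO from Cyp3a KO was -2.33. Serpina7, which encodes thyroxine-binding globulin, had pair differences of 1.26 and -2.61. Cyp2c69, a P450, had pair differences of 2.24 and -1.40, with 0.794 CPM in WT and 40.1 CPM in Cyp3a KO against 5.60 CPM in Cyp27a1 KO and 14.9 CPM in DKO. Both Cyp27a1-deleted livers thus lay between the 2 intact ones in Cyp2c69. Nebl, a cytoskeletal protein, had pair differences of 3.01 and -1.36, and Dct, a melanin synthesis enzyme, 2.08 and -1.51.

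In the reverse arrangement, Cyp39a1 had pair differences of -3.00 and 1.94. Sult2a1 had -1.70 and 10.45, and its near copy Sult2a2 had -1.62 and 9.91. The Cyp3a KO values of these sulfotransferases rested on 1 count and 6 counts, so the log2 differences depend on the added 0.5 CPM. Apoa4, a lipoprotein component, had pair differences of -1.32 and 1.36, and Enc1, an actin-binding protein, -1.08 and 1.02.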

How the results depend on the processing

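The count of genes called higher (204) was 340 on deposited TPM, 129 with a mean of at least 5 CPM, 130 with a pseudocount of 2, 2199 at any size and 47 at 4-fold; the count called lower (121) was 2430 at any size and 33 at 4-fold. Leaving out 1 library gave 163 (without DKO) to 518 (without Cyp27a1 KO) higher and 98 (without DKO) to 343 (without Cyp27a1 KO) lower; each side then holds 1 library where its other was left out, which makes separation easier to reach. Leaving out 1 library also unbalances the sides for Cyp3a deletion, so Cyp3a differences enter these counts. TPM recentred on the median gene, added after seeing the data, gave 201 higher and 134 lower. The edgeR fit, with 0 genes in each direction, gave 6 higher and 1 lower with library totals, 6 and 1 with a mean of at least 5 CPM, 0 to 22 higher and 0 to 17 lower with 1 library left out in a 1-factor fit (the highest without Cyp27a1 KO, where the lone deleted library is assumed to vary like the intact ones), and DESeq2 gave 216 and 116 and limma voom 1 and 1 in its place. Of the 54 genes the naming rule takes that were called, 54 were called with library totals and with median-of-ratios scaling, 49 of 53 with a value on TPM (not Ccnb1, Saa4, Smad7 and Sox9), 48 with a pseudocount of 2 and 42 without the DKO; at 4-fold 35 were. No paired analysis was possible because the labels give no replicate number that ties mice across genotypes; the 2 pairs described are set by the Cyp3a genotype, which the edgeR fit holds as a term.

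The median difference of all genes was -0.01, 0.09 with library totals, 0.00 with median-of-ratios scaling and 0.21 on TPM, and the medians of the lists of bile acid synthesis, bile acid feedback, acute phase, clock, growth hormone axis, hepatocyte, lipoprotein, pericentral and ribosomal protein genes took the other sign under at least 1 of these. With 1 mouse per genotype, depth is not the limit for abundant genes; the missing replicate is.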
